A study of Mus musculus with 20 samples.

Results

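The genes described here make cholesterol, sense it and move it. They comprised 32 genes listed by symbol: 19 enzymes of cholesterol synthesis, 4 regulators of the SREBP2 system, 4 genes of cholesterol transport and esterification, and 5 genes of the LXR and export system. Of these, 28 had a probe set of their own, and all 28 were among the 18250 genes tested. They were 17 enzymes, all 4 regulators, 3 transport genes and 4 LXR and export genes. Acat2, Tm7sf2, Soat1 and Nr1h2 were not analysed here. RNA of whole mouse pancreas had been hybridised to 20 Affymetrix arrays, of C57BL/6J animals with 2 genotypes at 2 ages around birth. The groups were P0 (day of birth) Iir -/- knockout (6 arrays), P0 Iir +/+ wild type (5 arrays), embryonic day 18.5 (E18.5) Iir -/- knockout (5 arrays) and E18.5 Iir +/+ wild type (4 arrays). Iir is the labels' name for Elapor1, which encodes inceptor, a membrane protein known to restrain insulin signalling, and the labels name no promoter or cell type that would confine the deletion. Pups were starved for 5 h at P0, whereas at E18.5 the mothers were starved for 2 h. Sex was not determined, and neither litter nor a separate animal for each array is given.

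Cells build cholesterol from acetyl-CoA in a chain that passes through mevalonate, isoprenoid units, squalene and lanosterol. Its genes are switched on together by SREBP2 (Srebf2), a membrane-bound transcription factor that Scap carries from the endoplasmic reticulum to the Golgi for release when sterols are scarce, while Insig proteins hold it back when sterols are plentiful. Sterol excess works through the oxysterol receptors LXR, which raise cholesterol efflux pumps such as Abca1. In the pancreas these lipids go into the extensive membranes of secretory cells.

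The deposited values were log2 signals, with array medians between 4.81 and 4.94. Elapor1 was low on every knockout array: signals ran from 5.58 to 6.38 in P0 knockout pancreas against 11.07 to 12.01 in P0 wild type, and from 5.79 to 6.501 in E18.5 knockout against 11.67 to 12.06 in E18.5 wild type. Where its probes lie relative to the deletion is not given in the sources used here. Of 8 acinar markers, Cpa1 and Cel stood at the ceiling of the scale, 19.93, on all 20 arrays, and means of 10 islet markers lay between 10.65 and 11.41. Markers of neighbouring organs varied between arrays of 1 group. The mean of 7 neuron and adrenal medulla markers was 10.23 on E18.5 knockout replicate 1, against 6.67 to 7.26 on the others of its group. Means of 12 liver markers ran from 5.96 to 12.35, and 4 arrays had an intestinal or skeletal muscle marker mean over 7: E18.5 knockout replicate 1 (muscle), E18.5 knockout replicate 2 (intestine), E18.5 wild-type replicate 4 (intestine) and P0 knockout replicate 4 (muscle). Hsd17b7 was above the array median on 18 arrays and Abcg1 on 16, and the other 26 genes on all 20, so no gene entered the test through a single group.

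Cholesterol synthesis transcripts were lower at P0 than at E18.5 in both genotypes. In knockout pancreas 16 of 17 enzymes fell (background over all tested genes 11.6% called lower), and in wild type 15 of 17 fell (background 4.08%), with all 15 also called in knockout (background for both genotypes 3.26%). The median log2 difference of the enzymes, P0 minus E18.5, was -1.37 in knockout and -1.47 in wild type, against medians of -0.0042 and 0.0057 over all tested genes. For 15 enzymes every one of the 11 P0 arrays lay below every one of the 9 E18.5 arrays, which held for 1.65% of all genes. Falls of more than 1 on the log2 scale were called for 10 enzymes in each genotype, where 1.78% of genes in knockout and 0.767% in wild type fell so far. Insig1 and Srebf2 fell too, Npc1 rose in both genotypes (background 3.39%), and Insig2 and Scap passed in neither. Calls rest on limma's moderated test over all 20 arrays, two-sided, with Benjamini-Hochberg adjustment over the 18250 genes and a threshold of 0.05. The age comparisons in the 2 genotypes rest on separate arrays and share an estimate of the spread. Age cannot be told apart from the length and kind of starvation, nor from the running sample numbers of the labels, which were 1 to 12 at P0 and 13 to 22 at E18.5. In RNA of a whole organ, fewer cells of a type and less RNA per cell cannot be told apart either.

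The genes that fell together were looked at in their promoters, taken from RefSeq (GRCm38.p6) as 250 bases before to 50 bases after the start site. The table held 26 of the 32 genes, and not Fdps, Fdft1, Sqle, Stard4, Npc1 or Abcg1. Sequence was searched on both strands for CACNCCAC (core of the sterol regulatory element), CCAAT (the NF-Y box, bound by a factor known to act beside SREBPs) and GGGCGG (the Sp1 box), with matches counted wherever they overlapped. Shown here are the stretches of the 5 genes with the largest fall in wild type among those the table held, from 20 bases before the first to 20 bases after the last sterol core or NF-Y match upstream of the start site, cut at the window's upstream end and at the start site. Capitals mark CCAAT or its reverse complement ATTGG, and in Insig1 and Hmgcs1 also the sterol core (GTGGCGTG as its reverse complement in Insig1).
Insig1: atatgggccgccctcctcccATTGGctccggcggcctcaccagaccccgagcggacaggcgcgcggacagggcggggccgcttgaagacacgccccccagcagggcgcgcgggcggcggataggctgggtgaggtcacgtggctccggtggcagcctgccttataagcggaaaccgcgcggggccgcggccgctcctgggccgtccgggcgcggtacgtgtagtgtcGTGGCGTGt
Hmgcs1: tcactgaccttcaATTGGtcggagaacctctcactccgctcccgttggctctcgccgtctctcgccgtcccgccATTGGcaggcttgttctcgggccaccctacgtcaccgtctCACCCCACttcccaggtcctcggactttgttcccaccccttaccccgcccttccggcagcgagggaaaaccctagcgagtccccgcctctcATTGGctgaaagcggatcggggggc
Msmo1: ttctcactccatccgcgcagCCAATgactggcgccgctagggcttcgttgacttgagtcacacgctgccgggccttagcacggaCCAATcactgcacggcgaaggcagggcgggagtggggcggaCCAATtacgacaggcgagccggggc
Idi1: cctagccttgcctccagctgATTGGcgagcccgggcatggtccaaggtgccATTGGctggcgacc
Nsdhl: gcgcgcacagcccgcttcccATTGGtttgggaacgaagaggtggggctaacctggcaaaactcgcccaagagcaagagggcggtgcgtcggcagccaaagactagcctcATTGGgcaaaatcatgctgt
They lie at chr5:28071176-28071411 on the plus strand (Insig1), chr13:119690101-119690330 on the plus strand (Hmgcs1), chr8:64733609-64733758 on the minus strand (Msmo1), chr13:8885541-8885605 on the plus strand (Idi1) and chrX:72918392-72918520 on the plus strand (Nsdhl). NF-Y boxes numbered 1 in the Insig1 stretch, 3 in Hmgcs1, 3 in Msmo1, 2 in Idi1 and 2 in Nsdhl. Of the genes called lower in both genotypes, 13 of 14 with a promoter in the table held a CCAAT box, against 5 of 8 other tested genes described here and 37.9% of the first promoters of all genes. GGGCGG was in 13 of 14, against 6 of 8 and 35.9%. The sterol core was in 2 of 14 (Insig1 and Hmgcs1), against 0 of 8 and 6.12%. These shares describe letters in a window and were not tested.

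**Figure D1:**
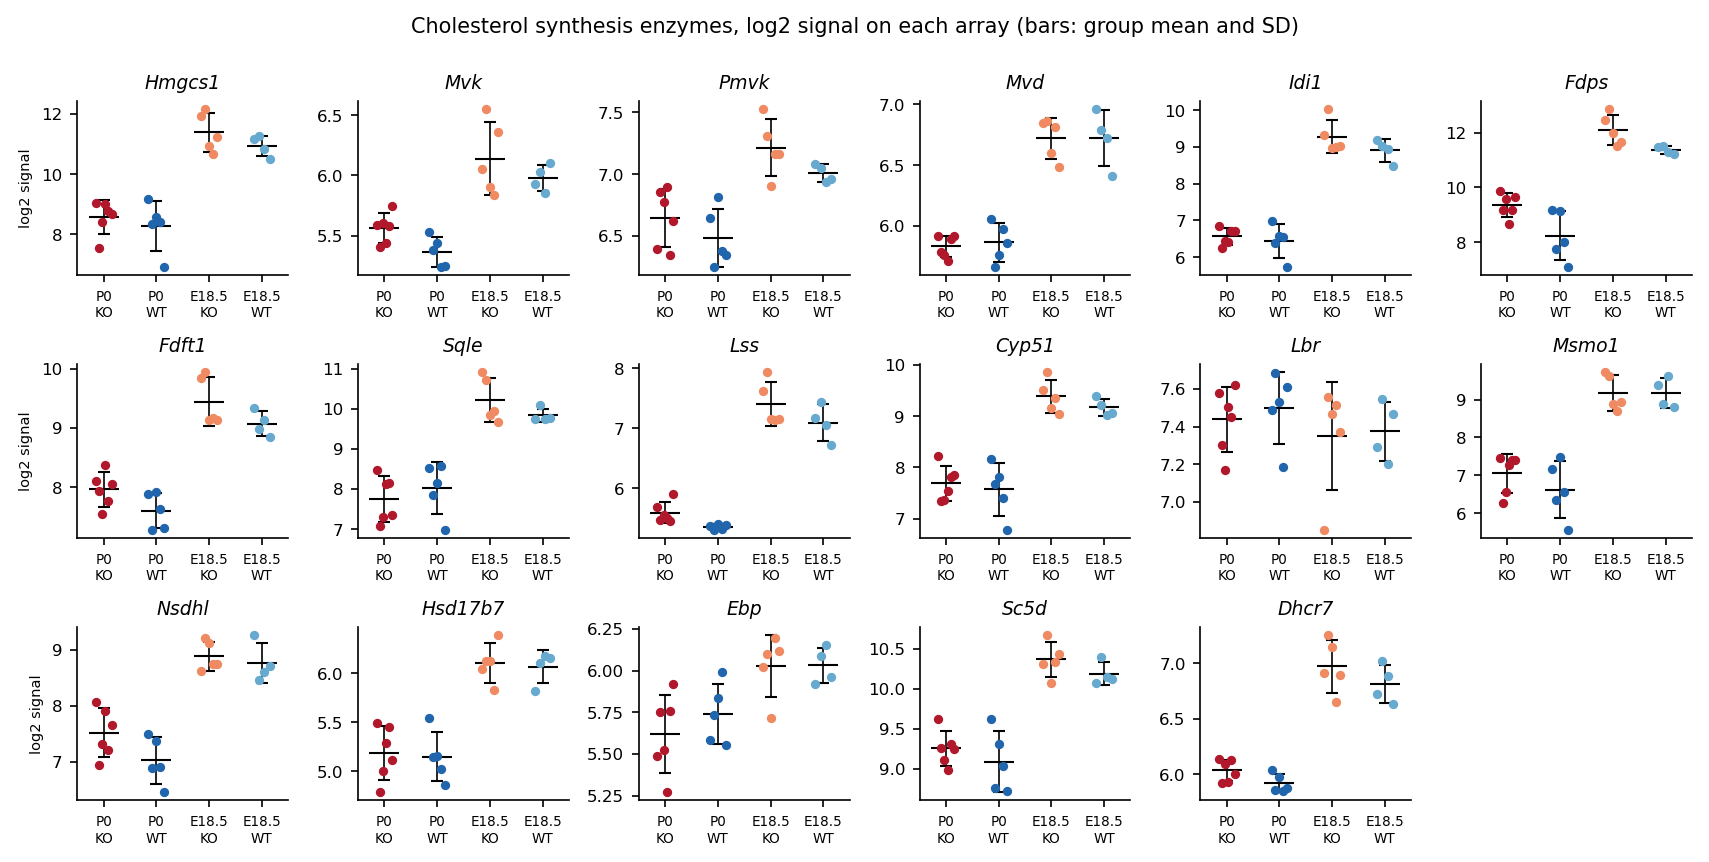
Log2 signal of the 17 cholesterol synthesis enzymes in pathway order on each of the 20 arrays (points), with group mean and SD (bars), for P0 knockout, P0 wild type, E18.5 knockout and E18.5 wild type. The vertical scales differ between genes. In all panels but Lbr and Ebp every P0 array is below every E18.5 array.

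Single values are given in the order of the replicate numbers, and those of the 6 P0 knockout arrays as the lowest, the median and the highest. Differences are P0 minus E18.5 on the log2 scale ± SE. The entry steps lead from acetyl-CoA to the first isoprenoid unit. Hmgcs1, the synthase that makes HMG-CoA, had signals of 7.53, 8.73 and 9.06 at P0, against 11.92, 12.16, 10.93, 10.68 and 11.24 at E18.5 in knockout. In wild type, Hmgcs1 had 9.18, 8.35, 8.58, 8.40 and 6.92 at P0, against 11.17, 11.25, 10.84 and 10.50 at E18.5. The ages were apart by more than 1 unit at their nearest arrays, and P0 wild-type replicate 5 was the lowest of all. Hmgcs1 differed by -2.81 ± 0.36 in knockout (7.002-fold lower, adjusted p = 6.64e-05) and -2.65 ± 0.40 in wild type (6.27-fold lower, adjusted p = 0.00105).

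Between HMG-CoA and the isoprenoid units, Mvk, Pmvk and Mvd phosphorylate mevalonate and then decarboxylate it. Mvk read 5.41, 5.59 and 5.75 at P0, against 6.06, 6.55, 5.90, 5.83 and 6.36 at E18.5 in knockout and 5.53, 5.38, 5.44, 5.24 and 5.25 at P0, against 5.93, 6.03, 5.85 and 6.10 at E18.5 in wild type. Pmvk read 6.35, 6.70 and 6.89 at P0, against 7.53, 7.31, 6.90, 7.17 and 7.16 at E18.5 in knockout and 6.65, 6.25, 6.81, 6.38 and 6.35 at P0, against 7.08, 7.05, 6.94 and 6.96 at E18.5 in wild type. Mvd read 5.72, 5.84 and 5.92 at P0, against 6.84, 6.86, 6.60, 6.81 and 6.49 at E18.5 in knockout and 6.06, 5.66, 5.76, 5.98 and 5.86 at P0, against 6.96, 6.79, 6.73 and 6.41 at E18.5 in wild type. All 3 had lower P0 than E18.5 arrays without overlap, by small margins: the highest P0 array of Pmvk (6.89, knockout) was just under its lowest E18.5 array (6.90, knockout). The differences were -0.58 ± 0.11 in knockout and -0.61 ± 0.12 in wild type for Mvk, -0.57 ± 0.13 and -0.52 ± 0.14 for Pmvk, and -0.89 ± 0.10 and -0.86 ± 0.11 for Mvd. Adjusted p ran from 1.78e-05 to 0.00355 in knockout and from 0.000266 to 0.027 in wild type. The call of Pmvk in wild type was lost without any one of 6 arrays, each of the wild-type arrays E18.5 replicates 1, 2 and 3 and P0 replicates 2, 4 and 5 (adjusted p from 0.0506 to 0.0784).

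Isoprenoid assembly follows, and both of its enzymes fell more than 5-fold in each genotype. Idi1 interconverts the isoprenoid units. Its signals were 6.25, 6.57 and 6.85 at P0, against 9.33, 10.03, 8.98, 8.995 and 9.02 at E18.5 in knockout, and 6.99, 6.38, 6.56, 6.53 and 5.73 at P0, against 9.19, 9.03, 8.95 and 8.47 at E18.5 in wild type. Even the highest P0 array, 6.99, was over 1 unit below the lowest E18.5 array, 8.47. Fdps joins the units into farnesyl diphosphate, the branch point to sterols and to lipid anchors of proteins. It had 8.68, 9.40 and 9.87 at P0, against 12.46, 12.86, 11.98, 11.51 and 11.67 at E18.5 in knockout, and 9.17, 7.77, 9.14, 8.02 and 7.11 at P0, against 11.46, 11.51, 11.30 and 11.21 at E18.5 in wild type. P0 wild-type arrays spread over 2.07 units, with replicates 1 and 3 close to the P0 knockout arrays and replicates 2, 4 and 5 below all of them. Idi1 fell 6.54-fold in knockout (-2.71 ± 0.21, adjusted p = 1.09e-06) and 5.54-fold in wild type (-2.47 ± 0.24, adjusted p = 4.47e-05). Fdps fell 6.65-fold in knockout (-2.73 ± 0.34, adjusted p = 4.93e-05) and 8.74-fold in wild type (-3.13 ± 0.37, adjusted p = 0.000223).

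Squalene is then made by Fdft1, oxidised by Sqle and closed into lanosterol by Lss. Fdft1 had 7.54, 7.9965 and 8.38 at P0, against 9.84, 9.95, 9.13, 9.16 and 9.14 at E18.5 in knockout, and 7.89, 7.28, 7.92, 7.63 and 7.31 at P0, against 9.34, 8.98, 9.13 and 8.85 at E18.5 in wild type. Sqle, a rate-limiting oxygen-dependent step, had 7.07, 7.74 and 8.47 at P0, against 10.92, 10.71, 9.84, 9.96 and 9.68 at E18.5 in knockout, and 8.53, 7.84, 8.15, 8.57 and 6.98 at P0, against 9.73, 10.09, 9.74 and 9.77 at E18.5 in wild type. In E18.5 knockout, replicates 1 and 2 were the highest for both genes. Lss had 5.46, 5.53 and 5.90 at P0, against 7.63, 7.94, 7.15, 7.15 and 7.16 at E18.5 in knockout, and 5.38, 5.31, 5.41, 5.33 and 5.38 at P0, against 7.17, 7.45, 7.05 and 6.72 at E18.5 in wild type, where its 5 P0 arrays lay within 0.10 units of each other. Fdft1 differed by -1.48 ± 0.18 in knockout and -1.47 ± 0.20 in wild type, and Lss by -1.81 ± 0.14 and -1.74 ± 0.16. Sqle differed by -2.48 ± 0.31 in knockout (adjusted p = 5.43e-05) and by -1.82 ± 0.34 in wild type (adjusted p = 0.00442). The difference between these 2 falls, -0.66 ± 0.46, did not pass (adjusted p = 0.804).

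From lanosterol onward, Cyp51 removes a methyl group, and Msmo1, Nsdhl and Hsd17b7 remove a pair of them at another position. Cyp51 had 7.34, 7.68 and 8.22 at P0, against 9.52, 9.86, 9.15, 9.35 and 9.04 at E18.5 in knockout, and 8.16, 7.68, 7.81, 7.41 and 6.79 at P0, against 9.40, 9.21, 9.03 and 9.06 at E18.5 in wild type. Msmo1 had 6.26, 7.34 and 7.46 at P0, against 9.73, 9.63, 8.88, 8.70 and 8.95 at E18.5 in knockout, and 7.16, 6.34, 7.498, 6.57 and 5.57 at P0, against 9.38, 8.87, 9.62 and 8.81 at E18.5 in wild type. P0 wild-type replicate 5 had the lowest value of each. Nsdhl had 6.94, 7.49 and 8.08 at P0, against 8.62, 9.21, 9.12, 8.75 and 8.75 at E18.5 in knockout, and 7.498, 6.89, 7.38, 6.92 and 6.46 at P0, against 9.27, 8.47, 8.60 and 8.72 at E18.5 in wild type. Hsd17b7 had 4.78, 5.20 and 5.49 at P0, against 6.04, 6.13, 6.12, 5.83 and 6.39 at E18.5 in knockout, and 5.54, 5.15, 5.15, 5.02 and 4.86 at P0, against 5.81, 6.11, 6.18 and 6.16 at E18.5 in wild type, and 2 of its arrays were not above the array median. All 4 genes had P0 and E18.5 arrays without overlap. Msmo1 fell most, with differences of -2.11 ± 0.32 in knockout and -2.54 ± 0.35 in wild type (adjusted p = 0.000215 and 0.000531). The differences were -1.70 ± 0.21 in knockout and -1.60 ± 0.23 in wild type for Cyp51, -1.37 ± 0.22 and -1.74 ± 0.24 for Nsdhl, and -0.92 ± 0.14 and -0.92 ± 0.15 for Hsd17b7, with adjusted p from 5.29e-05 to 0.00218.

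The last steps move and reduce double bonds. Sc5d, which introduces a double bond into the sterol ring, had 8.99, 9.25 and 9.63 at P0, against 10.31, 10.68, 10.07, 10.34 and 10.44 at E18.5 in knockout, and 9.63, 8.75, 9.31, 9.03 and 8.72 at P0, against 10.07, 10.40, 10.15 and 10.13 at E18.5 in wild type. Dhcr7, which reduces a ring double bond to give cholesterol, had 5.92, 6.05 and 6.14 at P0, against 6.91, 7.26, 7.15, 6.65 and 6.90 at E18.5 in knockout. In wild type Dhcr7 had 6.04, 5.85, 5.98, 5.85 and 5.88 at P0, against 6.73, 7.02, 6.89 and 6.63 at E18.5. Both were lower at P0 on every array, with differences of -1.11 ± 0.15 in knockout and -1.10 ± 0.17 in wild type for Sc5d and of -0.94 ± 0.09 and -0.90 ± 0.11 for Dhcr7 (adjusted p from 9.12e-06 to 0.00114). Ebp, a sterol isomerase, had 5.27, 5.64 and 5.92 at P0, against 6.02, 6.10, 5.72, 6.19 and 6.12 at E18.5 in knockout, and 5.58, 5.74, 5.84, 5.99 and 5.56 at P0, against 5.92, 6.09, 6.15 and 5.96 at E18.5 in wild type. Its P0 and E18.5 arrays overlapped in both genotypes. Ebp fell in knockout (-0.41 ± 0.11, adjusted p = 0.0137), and in wild type its difference was -0.29 ± 0.13 (adjusted p = 0.159). Lbr, a sterol reductase that is also a receptor of the inner nuclear membrane, was the enzyme that passed in neither genotype. It had 7.17, 7.48 and 7.62 at P0, against 6.85, 7.56, 7.47, 7.52 and 7.37 at E18.5 in knockout, and 7.49, 7.68, 7.53, 7.18 and 7.61 at P0, against 7.29, 7.55, 7.20 and 7.47 at E18.5 in wild type. The ages overlapped fully, and its differences were 0.09 ± 0.12 and 0.12 ± 0.14.

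**Figure D2:**
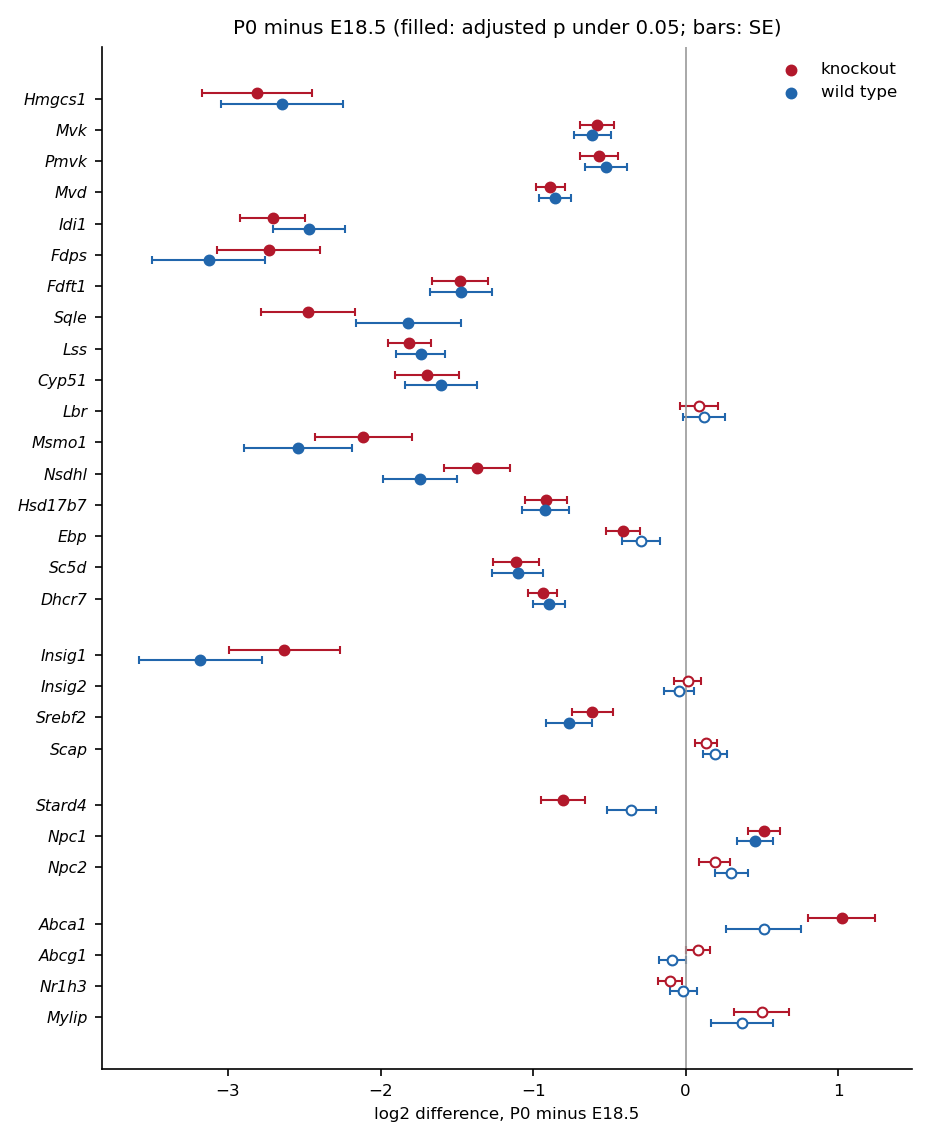
Log2 difference, P0 minus E18.5, of all 28 genes (x axis) in knockout (red, upper point of each pair) and wild type (blue), with SE bars and filled points for an adjusted p under 0.05. From top to bottom stand the enzymes in pathway order, the regulators, the transport genes and the LXR and export genes. The enzymes from Hmgcs1 to Dhcr7 lie left of 0 except Lbr, and Insig1 lies near them at -2.63 and -3.18.

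Of the 4 regulators, Insig1 and Srebf2 fell in both genotypes, and Insig2 and Scap passed in neither. Insig1, the sterol-dependent anchor that keeps SREBP2 in the endoplasmic reticulum, had 10.77, 11.09 and 11.87 at P0, against 14.001, 14.85, 13.80, 13.51 and 13.27 at E18.5 in knockout, and 11.50, 10.42, 11.36, 10.62 and 9.39 at P0, against 14.30, 14.05, 13.88 and 13.13 at E18.5 in wild type. Every P0 array was below every E18.5 array (1.65% of all genes), with P0 wild-type replicate 5 lowest by 1.03 units. It fell 6.199-fold in knockout (-2.63 ± 0.36, adjusted p = 0.000119) and 9.08-fold in wild type (-3.18 ± 0.40, adjusted p = 0.000274). Srebf2, which encodes SREBP2 and is itself among its targets, had 7.27, 7.52 and 7.83 at P0, against 8.11, 8.38, 8.13, 7.96 and 8.15 at E18.5 in knockout, and 7.76, 7.38, 7.48, 7.15 and 6.88 at P0, against 8.11, 8.20, 8.09 and 7.99 at E18.5 in wild type, again without overlap of the ages. Its differences were smaller, -0.61 ± 0.13 in knockout (adjusted p = 0.00332) and -0.76 ± 0.15 in wild type (adjusted p = 0.00518). Insig2, the second anchor, differed by 0.01 ± 0.09 in knockout and -0.04 ± 0.10 in wild type, with arrays between 6.55 and 7.2 throughout. Scap, the escort of SREBP2, differed by 0.13 ± 0.07 in knockout and 0.19 ± 0.08 in wild type (adjusted p = 0.197 and 0.145), and in wild type its P0 arrays lay above its E18.5 arrays, as for 6.19% of all genes.

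**Figure D3:**
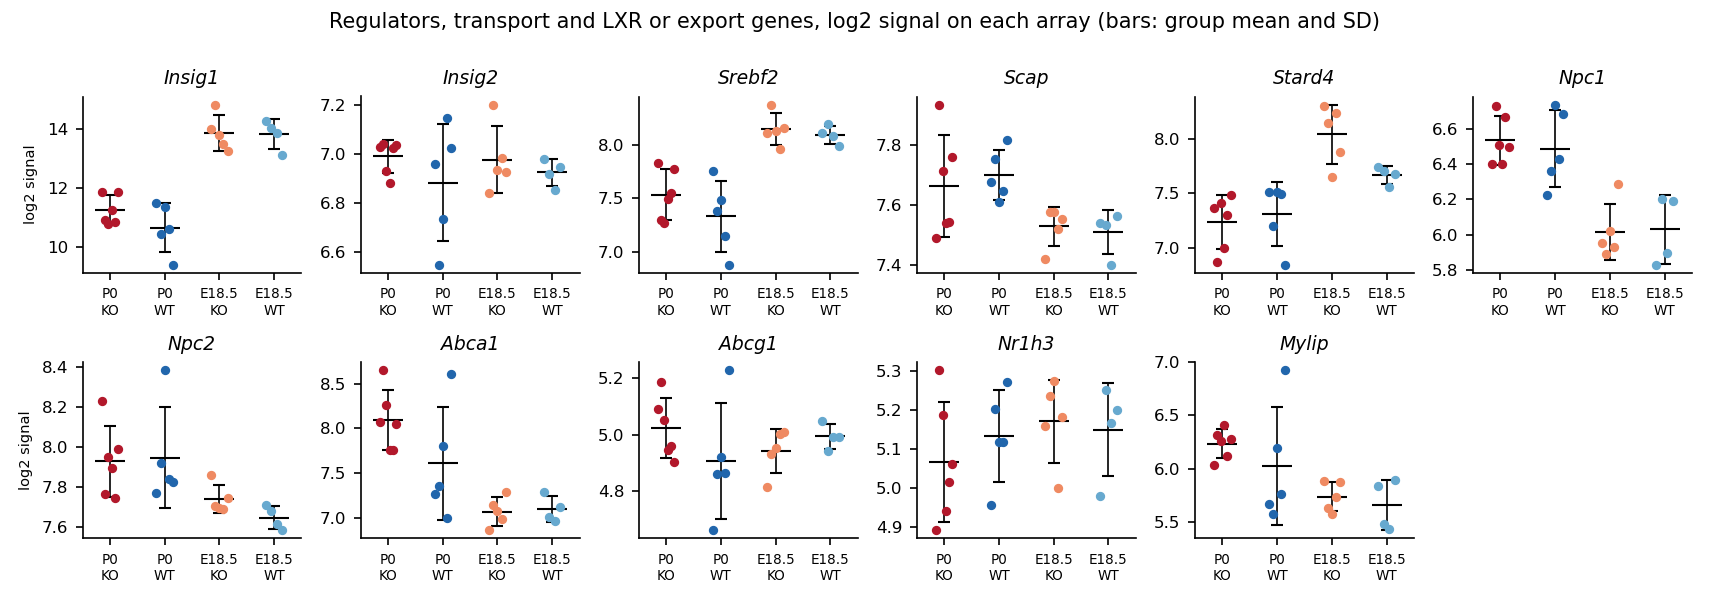
Log2 signal of the 4 regulators, 3 transport genes and 4 LXR and export genes on each of the 20 arrays (points), with group mean and SD (bars), for P0 knockout, P0 wild type, E18.5 knockout and E18.5 wild type. The vertical scales differ between genes. Insig1, Srebf2 and Stard4 have every P0 array below every E18.5 array, and P0 wild-type replicate 5 is the highest of its group for Abca1 (8.61) and Mylip (6.93).

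The transport genes did not move as 1 group. Npc1, the lysosomal membrane protein through which cholesterol leaves the lysosome, had 6.40, 6.5015 and 6.73 at P0, against 5.96, 5.89, 6.02, 5.93 and 6.29 at E18.5 in knockout, and 6.23, 6.36, 6.74, 6.43 and 6.68 at P0, against 5.83, 6.204, 5.90 and 6.19 at E18.5 in wild type. It rose by 0.52 ± 0.11 in knockout (adjusted p = 0.002; 11.1% of all genes were called higher) and by 0.46 ± 0.12 in wild type (adjusted p = 0.0222; 4.71% were called higher), and P0 arrays lay above E18.5 arrays within each genotype (5.82% of genes in knockout and 6.19% in wild type). The wild-type call was lost without E18.5 wild-type replicate 1 or 3 or P0 wild-type replicate 3 or 5 (adjusted p from 0.0546 to 0.0845). Npc2, its soluble partner in the lysosome, had differences of 0.19 ± 0.10 in knockout and 0.30 ± 0.11 in wild type (adjusted p = 0.187 and 0.0974). Stard4, a cytosolic sterol carrier whose gene is an SREBP2 target, had 6.87, 7.33 and 7.48 at P0, against 8.30, 8.14, 7.64, 8.24 and 7.88 at E18.5 in knockout, and 7.51, 7.20, 7.51, 7.49 and 6.84 at P0, against 7.74, 7.71, 7.55 and 7.68 at E18.5 in wild type. All 11 P0 arrays lay below all 9 E18.5 arrays (1.65% of all genes), if narrowly (7.51 against 7.55). Stard4 fell in knockout (-0.80 ± 0.14, adjusted p = 0.000796), and its wild-type difference was -0.36 ± 0.16 (adjusted p = 0.177). The test of the difference between the 2 genotypes gave -0.45 ± 0.21 (adjusted p = 0.709).

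Among the 4 LXR and export genes, Abca1, the pump that loads cholesterol onto apolipoproteins, was the 1 called, in knockout (11.1% of all genes were called higher). Its signals were 7.76, 8.06 and 8.65 at P0, against 6.86, 7.15, 7.07, 6.98 and 7.29 at E18.5 in knockout, and 7.27, 7.36, 7.81, 7.0 and 8.61 at P0, against 7.29, 7.02, 6.96 and 7.12 at E18.5 in wild type. In knockout every P0 array was above every E18.5 array, as for 5.82% of all genes. In wild type P0 replicates 1 and 4 lay within the E18.5 range and replicates 2, 3 and 5 above it. Abca1 rose 2.03-fold in knockout (1.02 ± 0.22, adjusted p = 0.00286), and its wild-type difference was 0.51 ± 0.24 (adjusted p = 0.207). The difference between the genotypes, 0.51 ± 0.33, did not pass (adjusted p = 0.781). Mylip, an LXR-induced ubiquitin ligase that removes lipoprotein receptors, had 6.03, 6.27 and 6.41 at P0, against 5.88, 5.63, 5.57, 5.73 and 5.87 at E18.5 in knockout, and 5.67, 5.57, 6.19, 5.76 and 6.93 at P0, against 5.84, 5.48, 5.43 and 5.89 at E18.5 in wild type. Its knockout P0 arrays were all above the E18.5 ones (5.82% of all genes), with a difference of 0.50 ± 0.18 (adjusted p = 0.0581 by limma). The wild-type difference of Mylip was 0.37 ± 0.20. It passed in knockout without P0 wild-type replicate 2 or 5 (adjusted p = 0.0472 and 0.00506), and with only the knockout arrays compared (adjusted p = 0.00319). Abcg1, a second efflux pump, and Nr1h3, which encodes LXR alpha, lay near the array medians, with signals from 4.66 to 5.23 and from 4.89 to 5.30 over all 20 arrays, and differences of 0.08 ± 0.08 and -0.10 ± 0.08 in knockout and -0.09 ± 0.09 and -0.02 ± 0.09 in wild type.

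Arrays differed within each group for the pathway as a whole. The mean of the 17 enzymes was 6.77 to 7.29 in P0 knockout and 8.27 to 8.87 in E18.5 knockout, and 6.37 to 7.20 in P0 wild type and 8.11 to 8.35 in E18.5 wild type. Within P0 knockout, replicate 1 was the highest array for 11 enzymes and replicate 2 the lowest for 9. Within P0 wild type, replicate 1 was the highest for 10 and replicate 5 the lowest for 10. At P0 the arrays with the lowest enzyme mean were knockout replicate 2 (6.77) and wild-type replicate 5 (6.37). They had the highest means of the 4 LXR and export genes in their groups (6.37 and 6.51) and the highest Abca1 signals (8.65 and 8.61). They also had the highest means of 10 macrophage markers in those groups (6.80 and 6.88), and a link was not tested. In E18.5 wild type the array with the lowest enzyme mean, replicate 4 (8.11), also had the highest LXR and export mean (5.80). In E18.5 knockout it was replicate 4 (8.27), which lay at the low end for the LXR and export genes (5.68). At E18.5, knockout replicate 2 was the highest of its group for 12 of 17 enzymes.

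**Figure D4:**
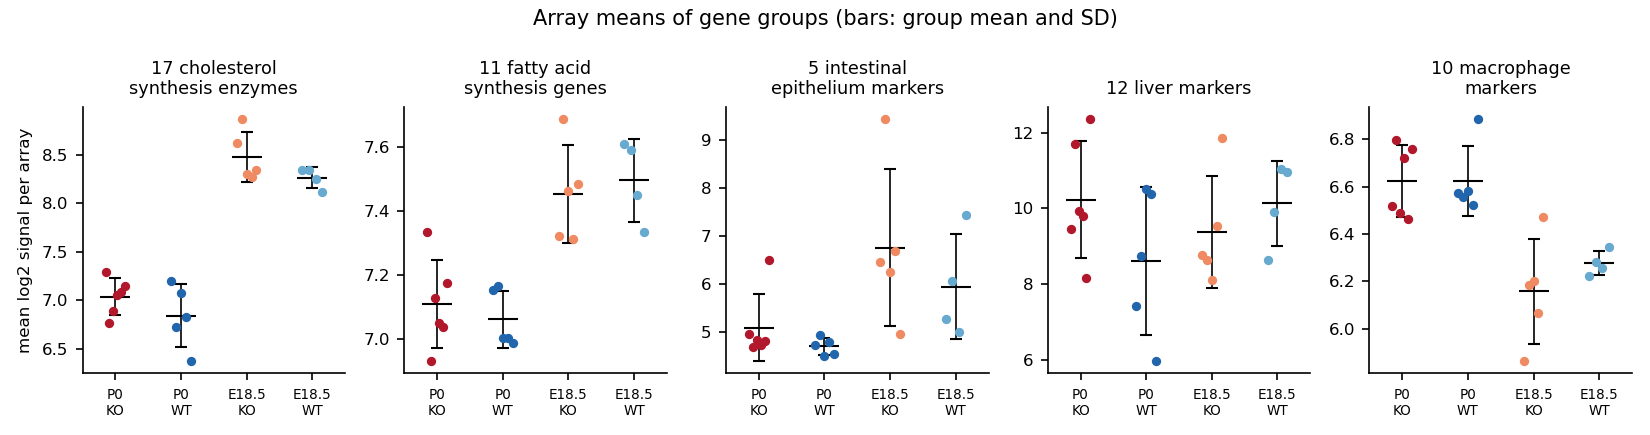
Mean log2 signal on each array (points) of the 17 cholesterol synthesis enzymes, 11 fatty acid synthesis genes and the markers of 3 other tissues or cell types, with group mean and SD (bars), for P0 knockout, P0 wild type, E18.5 knockout and E18.5 wild type. The vertical scales differ. The enzyme mean is 6.37 to 7.29 on P0 arrays and 8.11 to 8.87 on E18.5 arrays, and the intestinal mean reaches 9.43 on E18.5 knockout replicate 2.

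Some markers of the acinar cell, the main cell type of the organ, differed between the ages beside the fall of the enzymes. Of the 8 acinar markers tested, 3 were called lower and 1 higher in each genotype. Over all genes 11.6% were called lower and 11.1% higher in knockout, and 4.08% and 4.71% in wild type. The acinar transcription factor Ptf1a averaged 9.09 in P0 knockout and 12.09 in E18.5 knockout, and 8.85 in P0 wild type and 11.88 in E18.5 wild type. Its partner Rbpjl differed by -2.61 ± 0.29 in knockout and -1.26 ± 0.32 in wild type, and Bhlha15, a factor of secretory cell maturation, by -1.90 ± 0.30 and -1.79 ± 0.33. The zymogen granule protein Gp2 was higher at P0, by 4.01 ± 0.67 in knockout and 4.10 ± 0.75 in wild type. Nr5a2 and Cela1 passed in neither genotype, and for Cpa1 and Cel a difference could not be measured at the ceiling. Array means of the 8 markers were 13.11 to 14.23 in P0 knockout and 13.96 to 14.39 in E18.5 knockout, and 13.68 to 14.26 in P0 wild type and 13.91 to 14.42 in E18.5 wild type. Of 10 islet markers, 2 were called lower in knockout, and 2 higher and 1 lower in wild type. The part of these markers in the fall of the enzymes was not tested.

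Markers of other cell types also differed with age in part. Of 11 intestinal epithelium markers, 5 passed the signal filter. All 5 lay below 0 for P0 minus E18.5, 3 called lower in knockout (11.6% of all genes) and 1 in wild type (4.08%). Their array means were 4.68 to 6.49 in P0 knockout and 4.96 to 9.43 in E18.5 knockout, and 4.50 to 4.92 in P0 wild type and 5.00 to 7.44 in E18.5 wild type. Cdx1, Lct, Cdh17, Slc15a1, Mep1a and Alpi did not pass the filter. Muc13 lay under the lowest array median, 4.81, on every P0 array (highest 4.78 in knockout and 4.39 in wild type). It passed the filter through E18.5 arrays alone, which favoured a fall. The shared direction of all 5 is therefore in part set by the filter. E18.5 knockout replicate 2, with the highest intestinal mean, also had the highest enzyme mean of all arrays. With those 4 arrays of high intestinal or muscle signal left out, 17 genes were called lower in each genotype, and in knockout Ebp (adjusted p = 0.149) and Srebf2 (adjusted p = 0.0681) no longer passed. With the mean of the intestinal markers as a covariate, Ebp in knockout (adjusted p = 0.106) and Pmvk and Npc1 in wild type (adjusted p = 0.0701 and 0.074) lost their calls.

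Macrophage markers mostly lay higher at P0, beside the rises of Npc1 and Abca1. All 10 passed the filter, and 10 in knockout and 8 in wild type were above 0 for P0 minus E18.5. In knockout 4 were called higher (11.1% of all genes), and in wild type 1 higher (4.71%) and 1 lower (4.08%). Their array means were 6.46 to 6.80 in P0 knockout and 5.86 to 6.47 in E18.5 knockout, and 6.52 to 6.88 in P0 wild type and 6.22 to 6.34 in E18.5 wild type. With that mean as a covariate Abca1 in knockout lost its call (0.37 on the log2 scale, adjusted p = 0.576), as did Npc1 in both genotypes (adjusted p = 0.381 in knockout and 0.343 in wild type), and 5 genes were called lower in knockout and 12 in wild type. The median of the enzymes under it was -1.15 in knockout and -1.04 in wild type, and in knockout Fdps differed by -2.01, Insig1 by -2.02 and Hmgcs1 by -1.89 (adjusted p = 0.0518, 0.0747 and 0.0675). The marker means barely overlapped between the ages, and calls over all genes numbered 275 in knockout and 171 in wild type with this covariate. Of 12 tested liver markers, none was called in either genotype. At an unadjusted p under 0.05 were 0 in knockout (34.7% of all genes) and 1 in wild type (24.3%). Their array means had SDs of 1.12 to 1.95 within groups, so a shift with age could hardly be detected. Of 8 steroidogenic markers, Star, Nr5a1, Cyp11b1, Hsd3b1 and Cyp21a1 did not pass the filter. Of 8 adipocyte markers, Adipoq, Plin1, Cidec, Lep and Adig did not. Group means of these genes lay between 3.88 and 4.68, under the array medians, though Hsd3b1 reached 5.08 on a P0 knockout array. Of the 3 steroidogenic markers that passed the filter, Cyp11a1 was called lower in both genotypes (3.26% of all genes). Its group means were 4.56 in P0 knockout and 5.02 in E18.5 knockout, and 4.56 in P0 wild type and 5.24 in E18.5 wild type. At P0 it reached 4.86 in knockout and 4.795 in wild type, beside array medians of 4.81 to 4.94. Cyp11a1 thus passed the filter mostly through E18.5 arrays, which favoured a fall, and its P0 signals were near the floor. Of the 3 adipocyte markers that passed, Fabp4, shared by adipocytes, endothelium and macrophages, was called higher in both genotypes (3.39% of all genes). Fabp4 averaged 12.08 in P0 knockout and 10.89 in E18.5 knockout, and 11.995 in P0 wild type and 10.88 in E18.5 wild type. Retn and Pck1 were called in neither genotype, with group means from 4.85 to 4.94 and from 5.02 to 5.47.

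The loss of inceptor was not accompanied by a called change in any of these genes at either age. At P0, 0 of 28 were called between knockout and wild type (background 0.011%, or 2 of 18250 genes), and 3 had an unadjusted p under 0.05 (8.76% of all genes did). At E18.5, 0 of 28 were called (background 0.011%), and 1 had an unadjusted p under 0.05 (5.45% of all genes did). Averaged over both ages the counts were 0 and 4, with backgrounds of 0.0164% and 6.51%. Knockout minus wild type was above 0 for 20 of 28 at P0, with a median over the enzymes of 0.16, and for 22 of 28 at E18.5, with a median of 0.18. The median at E18.5 was 0.09 without knockout replicate 2 and -0.01 without the 4 arrays of high intestinal or muscle signal named above. The median at P0 was 0.09 without knockout replicate 1 and 0.08 without wild-type replicate 5. All-gene medians were 0.00 and 0.02, and 9483 and 10301 of the 18250 genes were above 0.

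Fdps had the largest difference between genotypes at both ages. At P0 it averaged 9.36 ± 0.43 in knockout and 8.24 ± 0.90 in wild type (SD, n = 6 and 5), a difference of 1.12 ± 0.34 (adjusted p = 0.397 by limma), and its ranges overlapped. At E18.5 it averaged 12.10 ± 0.56 in knockout and 11.37 ± 0.14 in wild type (SD, n = 5 and 4), a difference of 0.73 ± 0.37 (adjusted p = 0.919 by limma), with every knockout array above every wild-type array, as for 1.72% of all genes. The nearest of these were knockout replicate 4 (11.507) and wild-type replicate 2 (11.506). The highest were knockout replicates 1 and 2 (12.46 and 12.86), named above for muscle and intestinal markers. At P0 all 12 liver markers were above 0 for knockout minus wild type, with a median of 1.83 and 0 called. At E18.5, 11 of the 12 were below 0, with a median of -0.75 and 0 called. P0 wild-type replicate 5 had the lowest Fdps signal (7.11) and the lowest liver marker mean (5.96). Replicate 1, with the next lowest liver mean of that group (7.42), had its highest Fdps signal (9.17). A link between Fdps and the liver markers was not tested. Averaged over both ages the difference of Fdps was 0.92 ± 0.25 (adjusted p = 0.571 by limma). Lss was the other gene without overlap, at P0, where 0.274% of all genes had every knockout array higher: its knockout arrays ran from 5.46 to 5.90 and its wild-type arrays from 5.31 to 5.41, for a difference of 0.24 ± 0.14 (adjusted p = 0.653). Of the regulators, Insig1 differed most at P0, by 0.59 ± 0.36, with 0.04 ± 0.40 at E18.5. Of the transport genes Stard4 differed most, by -0.07 ± 0.14 at P0 and 0.37 ± 0.16 at E18.5 (unadjusted p = 0.0315, adjusted p = 0.913 by limma). Of the export genes Abca1 differed most at P0, by 0.48 ± 0.22, with -0.03 ± 0.24 at E18.5. Its signals at P0 ran over knockout arrays from 7.76 to 8.65 and P0 wild-type arrays from 7.0 to 8.61.

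The change of the genotype effect between ages was called for 0 of 28 genes (0% of all genes), and 0 had an unadjusted p under 0.05, against 7% of all genes. Estimates ran from -0.66 ± 0.46 for Sqle to 0.55 ± 0.54 for Insig1. The age differences in knockout and in wild type were therefore not shown to differ for any gene described here, including the 3 called in knockout alone (Ebp, Stard4 and Abca1).

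**Figure D5:**
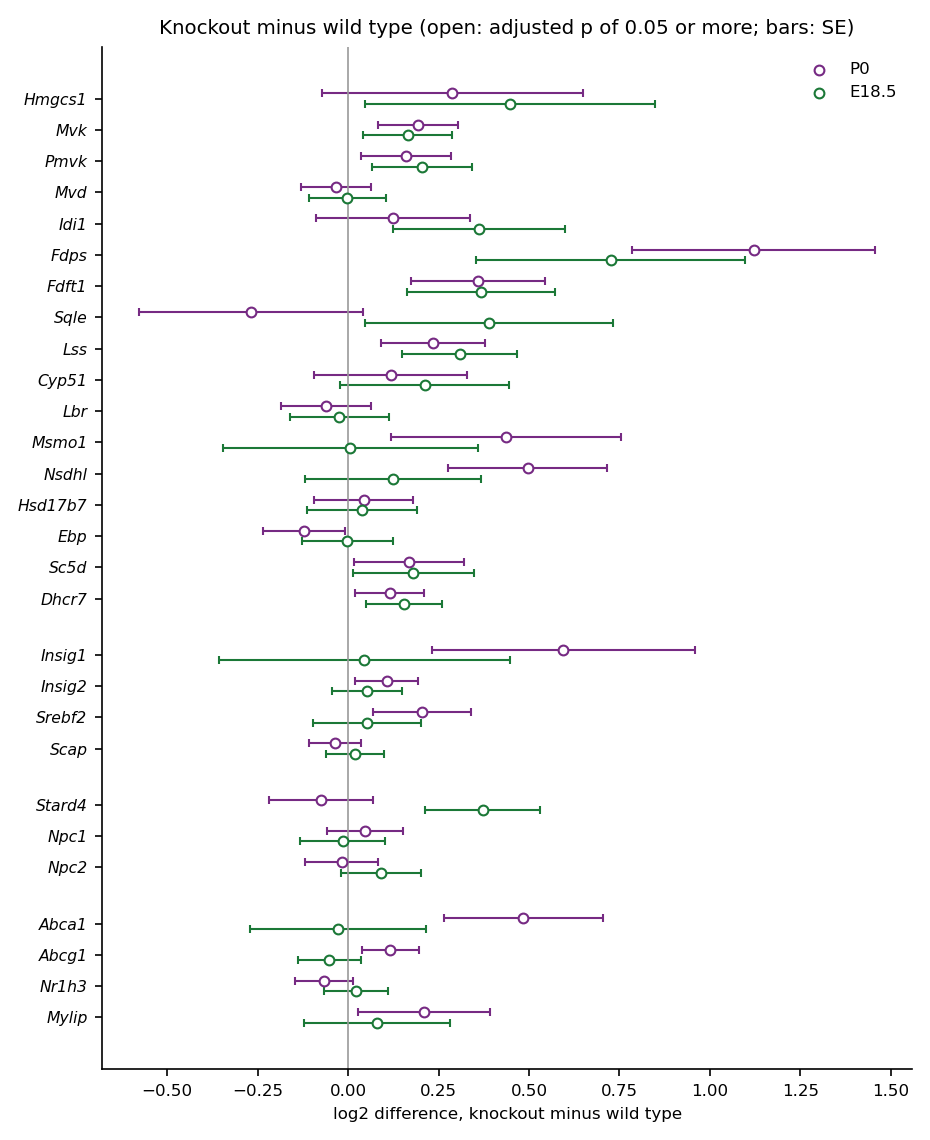
Log2 difference, knockout minus wild type, of all 28 genes (x axis) at P0 (purple, upper point of each pair) and at E18.5 (green), with SE bars, in the same order of genes as for the ages. All points are open because no adjusted p was under 0.05, and Fdps lies farthest right at both ages, at 1.12 and 0.73.

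Genes around the pathway were counted from 6 further lists, beside shares over all tested genes of 11.6% called lower and 11.1% called higher in knockout and of 4.08% and 4.71% in wild type. A list of redox partners and scaffolds of the sterol enzymes also held Aacs, Acss2 and Acat1, enzymes of acetyl-CoA and acetoacetyl-CoA metabolism. Of its 9 tested genes, 7 fell at P0 in knockout (11.6% of all genes) and 4 in wild type (4.08%), with medians of -0.59 and -0.31. They included Tmem97, an endoplasmic reticulum protein tied to sterol handling (-1.57 ± 0.26 in knockout and -1.17 ± 0.29 in wild type), Erg28, a scaffold of the demethylating enzymes (-0.96 ± 0.20 and -0.75 ± 0.23), and in wild type Cyb5b, an electron carrier (-0.77 ± 0.16). Acat1, the mitochondrial acetoacetyl-CoA thiolase, differed by -0.86 ± 0.15 in knockout and passed there. Of 11 tested fatty acid synthesis genes, which SREBP1 controls, 5 fell (11.6% of all genes) and 1 rose (11.1%) in knockout, and 5 fell in wild type (4.08%). Fasn, the fatty acid synthase, fell in both genotypes, with differences of -0.90 ± 0.13 in knockout and -1.13 ± 0.14 in wild type. For the desaturase Fads2 they were -0.99 ± 0.24 and -1.30 ± 0.27, and for the elongase Elovl6 -1.11 ± 0.17 and -0.85 ± 0.18. The median over the fatty acid list was -0.40 in knockout and -0.30 in wild type, against -1.37 and -1.47 for the cholesterol enzymes.

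In the other 4 lists 0 to 4 genes were called in each direction. In the isoprenoid and dolichol branch, which draws on farnesyl diphosphate, 2 of 11 fell in knockout (11.6% of all genes). They were Dhdds (-0.36 ± 0.10) and Pdss2 (-0.34 ± 0.08). In wild type 0 were called, and 5 of 11 had an unadjusted p under 0.05 by limma in either direction (24.3% of all genes). There 7 of the 11 lay above 0, with a median of 0.19. Of 9 genes for SREBP processing and sterol-regulated degradation, 2 rose in knockout (11.1% of all genes), the SREBP-cleaving protease Mbtps1 (0.37 ± 0.09) and the ubiquitin ligase Rnf139 (0.25 ± 0.08). In wild type Ufd1 rose (0.46 ± 0.11) and Rnf145 fell (-0.45 ± 0.13). The largest differences of this list were those of Erlin1, a scaffold of sterol-regulated degradation, -0.92 ± 0.34 in knockout and -0.85 ± 0.37 in wild type, which did not pass (adjusted p = 0.0593 and 0.172). Of 12 genes for sterol uptake, transport and storage, Osbpl9 rose in knockout (11.1% of all genes; 0.49 ± 0.12), and the cholesteryl ester hydrolase Nceh1 (0.66 ± 0.13) and Gramd1c (0.34 ± 0.08) rose in wild type (4.71% of all genes). Of 11 other LXR partners, targets and oxysterol enzymes, 4 rose in knockout (11.1% of all genes), among them the mitochondrial sterol hydroxylase Cyp27a1 (0.61 ± 0.19), the phospholipid transfer protein Pltp (0.40 ± 0.10) and the LXR partner Rxra (0.38 ± 0.13), and 2 in wild type (4.71%), Smpdl3a (0.50 ± 0.14) and Ncoa1 (0.44 ± 0.10). None of these 6 lists held a gene called between genotypes at P0 or at E18.5 by limma. At an unadjusted p under 0.05 they held 5 genes at P0, where 8.76% of all genes passed, and 1 at E18.5, where 5.45% did.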

How the data were processed

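The deposited values are log2 signals of 65956 probe sets on 20 arrays, which the authors made with Affymetrix Expression Console 1.4.1.46 using RMA, per the submitters' processing notes; the array's genome build is not given in the sources used here. They run from 2.17 to a ceiling of 19.93 that 261 to 278 probe sets share on each array. Per the labels' protocols, RNA was amplified with a whole-transcript kit from NuGEN and biotin-labelled.

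Probe sets were named from the platform's table, with symbols updated to RefSeq (GRCm38.p6): 31094 had 1 gene, 1656 several and 33206 none. Older and newer symbols of 1 gene were merged, and the probe set with the highest mean was kept. The test took the 18250 of 30565 genes whose signal exceeded the median of the array on 4 or more arrays. In R 4.3.3, limma 3.58.1 was run on the 20 arrays together with 1 mean per group (16 residual degrees of freedom), and p-values were adjusted by Benjamini-Hochberg over all tested genes and called under 0.05. The fit was tested on simulated data. Whether each array is a separate animal is not given, so the p-values reflect only how these samples vary, which may be technical, and the number of arrays limits the precision.

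The genes and lists described were chosen with earlier results of these data known. All genes listed by symbol are named. Of each further list, up to 3 called genes with the largest difference are named, apart from markers, which were named after their values were seen. Alternatives covered signal filters, centring, cyclic loess, variance settings, the arrays compared alone, a replicate block, a liver marker covariate, averaging a gene's probe sets, and dropping each array in turn. Added once the data had been seen were intestinal and macrophage covariates, dropping 4 marker-rich arrays, and probe sets listed with 1 symbol. Figures were drawn with matplotlib 3.10.9 in Python 3.11.15.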

Additional observations from a re-analysis of the deposited data

Results flagged for a closer look

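In 112 combinations of a gene and a group, 3 arrays stood apart by Dixon's test, which chance alone passes in about 1 of 20 groups. Sqle was 10.09 on E18.5 wild-type replicate 2, above the other 3 arrays of its group at 9.73 to 9.77. Npc2 was 8.39 on P0 wild-type replicate 3, above the others at 7.77 to 7.92. Lbr was 6.85 on E18.5 knockout replicate 1, below the others at 7.37 to 7.56. This array was also rich in muscle markers and in neuron and adrenal medulla markers.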

How the results depend on the processing

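No direction of a called gene turned under any alternative run, and 0 of 28 genes were called between genotypes, or for the change of that effect between ages, under every one of them. The genes called lower numbered 19 in knockout and 16 to 17 in wild type when each array was left out, and the enzyme median then ran from -1.48 to -1.25 in knockout and from -1.55 to -1.38 in wild type. Under the other alternatives 5 to 19 genes were called lower in knockout and 12 to 17 in wild type, and both low ends came from the macrophage covariate, which gave 5 in knockout, an enzyme median of -1.04 in wild type and 0 genes called higher in either genotype. Called higher in wild type were 0 genes with only the arrays compared and with the intestinal covariate, and 0 to 1 when each array was left out. Rescaling by centring or cyclic loess moved the all-gene median by under 0.1 and added Mylip to the genes called higher in knockout (adjusted p = 0.0446 and 0.0484). The enzyme median between genotypes ran from 0.0759 to 0.239 at P0 and from 0.0918 to 0.254 at E18.5 when each array was left out, and was -0.008 at E18.5 with the 4 marker-rich arrays left out. With only probe sets listed with 1 symbol, Msmo1 was not tested.

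Replicate numbers were not taken to pair the samples: same-numbered arrays correlated over 0.1 in 3 of 4 pairs between genotypes at E18.5 (0.09 to 0.221), 2 of 5 at P0 (-0.028 to 0.236), 0 of 5 between ages in knockout (-0.303 to -0.014) and 2 of 4 in wild type (-0.012 to 0.184). With the replicate block 19 genes were called lower in knockout and 16 in wild type, where Pmvk did not pass (adjusted p = 0.0827), and the enzyme medians were -1.40 and -1.40. Own numbers were the best match for 6 of 8 arrays between genotypes at E18.5, 2 of 10 at P0, 0 of 10 between ages in knockout and 4 of 8 in wild type.

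Signals near the array medians, as for Abcg1 and Nr1h3, leave little room to measure a fall. Starvation, sample number and age cannot be told apart.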
